A study of Mus musculus with 6 samples.

Results

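The cytosolic chaperonin CCT, also called TRiC, is assembled from 8 related subunits, encoded in the mouse by Tcp1 (subunit alpha) and by Cct2, Cct3, Cct4, Cct5, Cct6a, Cct7 and Cct8 (subunits beta to theta). These 8 genes were taken by name, and all 8 were among the 23886 genes listed and among the 11114 that passed the filter on low values, reached by genes with 3 or more libraries at or above 1 FPKM. Poly(A) RNA was sequenced from AML12 cells, a hepatocyte line established from the liver of mice that carry a human TGF-alpha transgene. The 3 Control libraries (Control 2, 3 and 4) came from AML12 cells labelled wild type with no treatment, and the 3 SMF libraries (SMF 1, 2 and 3) from the same line exposed to a static magnetic field. Neither the strength of the field nor its duration was available here, and no label says whether the libraries of a group came from separate cultures, so p-values measure the spread between these libraries, which may be technical. The comparison asks how evenly the transcripts of the 8 subunits are supplied, and whether the field changes their levels.

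CCT is a barrel of a pair of stacked rings, each of which holds 1 copy of every subunit in a fixed order. An unfolded protein is bound in the open barrel, and ATP hydrolysis closes a lid formed by the subunits themselves, inside which the protein folds. Actin and tubulin depend on it, as do several proteins with WD40 repeats such as the G protein beta subunits and Cdc20. Prefoldin hands nascent actin and tubulin to the barrel, and phosducin-like proteins act with it on G protein beta and other clients. Since a complete ring needs every subunit, the balance of the 8 gene products is of interest in any cell. Along the ring, Tcp1, Cct4, Cct2 and Cct5 form a side whose subunits bind ATP with high affinity, and Cct7, Cct8, Cct6a and Cct3 a side with low affinity.

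Library totals recovered from the FPKM ran from 15514530 reads (SMF 1) to 18200516 reads (Control 3). Nearly all of these reads lay in the listed genes (15514469 in SMF 1), and reads outside them are not known. Across all tested genes, log2(FPKM + 1) correlated at 0.9911 to 0.9927 within groups and 0.9865 to 0.9915 between groups (Pearson's r across genes, which are not independent replicates). Of 9 hepatocyte markers, 8 were at or above 1 FPKM in every library, among them Krt8, Krt18 and Hnf4a, and Apoa1 was below 1 FPKM in every library. The bile duct markers Krt19, Krt7 and Sox9 were also present, Krt19 at 1024 to 1163 FPKM, and Epcam was at 0 in all but 1 library. The summed hepatocyte markers ran from 3632 to 3826 FPKM without the field and from 3806 to 4014 FPKM with it, and the summed bile duct markers from 1123 to 1147 and from 1094 to 1236 FPKM. Most of the hepatocyte sum was Krt8 and Krt18, at means of 1969 and 1621 FPKM over the 6 libraries. Hnf4a, Trf, Alb and Ttr had means of 91.5, 69.6, 29.8 and 26.1 FPKM, and Apoe and Afp of 5.9 and 1.53 FPKM. The fibroblast, endothelial and macrophage lists each summed to at most 4.33 FPKM in any library.

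The stretches before the starts are shown because part of the motif matches counted after them lie there. RefSeq promoter windows (GRCm38.p6, 250 bases before to 50 after a start) were found for 7 of the 8 members, with 9 windows in all; Cct4 had no entry. The sequences below run 5′ to 3′ on the gene's own strand from base -120 to base -21 relative to the start, for the 4 members in which that stretch overlapped no annotated exon. Cct2 has 2 listed starts and both stretches are printed; the bases just after the first are in no GENCODE M21 transcript of the gene, and those after the second are. Capitals mark a GC box, a CCAAT box, an ETS site or the core of a heat shock element on either strand, whose letters are given with their counts after the sequences. Matches were counted over the whole windows, and some lie outside the printed stretches, such as the ETS site of Cct2 at bases -18 to -12.
Cct2 first start, chr10:117063873-117063972, minus strand: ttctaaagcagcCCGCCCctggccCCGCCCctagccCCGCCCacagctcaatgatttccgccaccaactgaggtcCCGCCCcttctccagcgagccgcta
Cct2 second start, chr10:117063396-117063495, minus strand: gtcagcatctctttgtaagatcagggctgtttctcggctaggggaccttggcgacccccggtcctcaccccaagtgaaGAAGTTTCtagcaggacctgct
Cct3, chr3:88297015-88297114, plus strand: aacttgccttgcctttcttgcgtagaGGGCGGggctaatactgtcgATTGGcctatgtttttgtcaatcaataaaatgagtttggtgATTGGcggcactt
Cct7, chr6:85451385-85451484, plus strand: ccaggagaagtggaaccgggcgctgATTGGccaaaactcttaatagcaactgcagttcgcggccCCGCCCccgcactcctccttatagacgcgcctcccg
Cct8, chr16:87495890-87495989, minus strand: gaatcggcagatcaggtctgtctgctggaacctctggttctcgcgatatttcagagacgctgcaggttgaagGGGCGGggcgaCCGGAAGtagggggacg

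The GC box, known as a site for SP1, is spelled GGGCGG. It was found in at least 1 window of all 7 members with an entry and in 8 of their 9 windows, against 35.7% of the 32851 windows of this length in the table. The CCAAT box, searched by the letters of its name and known as a site for NF-Y, was present in Cct3, Cct6a, Cct7 and Tcp1. That is 4 of 9 member windows, against 37.4% of all windows. The ETS site, bound by the ETS family of factors and searched as CCGGAAG, was present in Cct2, Cct8 and Tcp1. These hold it in 3 of 9 member windows, against 8.86% of all windows. The core of a heat shock element, GAANNTTC, is bound by the stress factor HSF1. It occurred in 1 of 9 member windows, that of the second start of Cct2, against 7.86% of all windows. The palindromic NRF1 site occurred in 1 of 9 member windows, in Cct5, against 0.971% of all windows. Both strands were searched and none of these motifs contains another. These matches describe letters in a window, not sites in use.

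The transcripts of the 8 subunits were unequal, and their order was nearly the same in all 6 libraries. As deposited, in FPKM (fragments per kilobase of gene, scaled to library size), Cct5 and Cct2 stood apart at a mean of 215.4 and 191.1 over the 6 libraries, Tcp1, Cct6a, Cct8 and Cct4 lay together between 83.5 and 91.7, and Cct7 and Cct3 were lowest at 71.2 and 54.4. The highest subunit exceeded the lowest by 3.96-fold (SD 0.0132 over 6 libraries). Neighbours in this order did not overlap between Cct5 and Cct2, Cct2 and Tcp1, Cct4 and Cct7, or Cct7 and Cct3, with the higher gene ahead in 6 of 6 libraries. The ranges of Tcp1, Cct6a, Cct8 and Cct4 overlapped step by step: Cct6a exceeded Cct8 in 4 of 6 libraries and Cct8 exceeded Cct4 in 5 of 6. These values rest on 3782 to 10820 reads per gene and library, where counting alone gives an error of 0.961% to 1.63%.

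**Figure D1:**
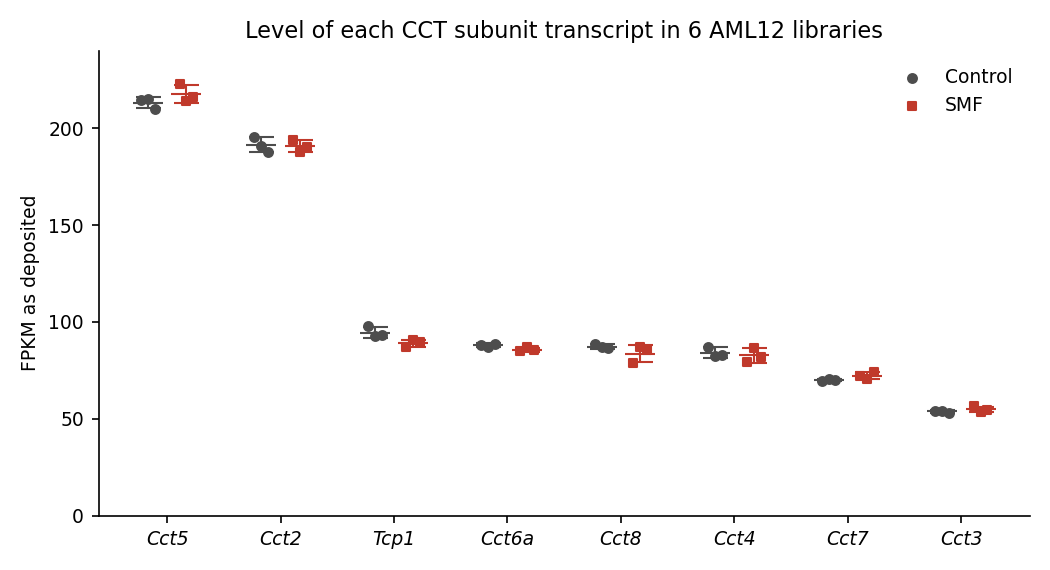
FPKM of each CCT subunit transcript (vertical axis, from 0) in 3 Control libraries (grey circles) and 3 SMF libraries (red squares), with bars for the group mean and its SD. Cct5 and Cct2 lie near 200 FPKM in both groups and the other subunits between 52.9 and 97.7 FPKM.

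Among the subunits of high ATP affinity, Cct5 (epsilon, ENSMUSG00000022234, on chromosome 15) measured 214.5, 214.9 and 209.9 FPKM in Control 2, 3 and 4 and 222.6, 214.1 and 216.3 in SMF 1, 2 and 3. Cct2 (beta, ENSMUSG00000034024, chromosome 10) measured 195.6, 191.1 and 187.8 FPKM in turn without the field, against 194.2, 187.6 and 190.5 with it. The groups overlapped for both genes, and both were above the other 6 subunits in every library. Tcp1 (alpha, ENSMUSG00000068039, chromosome 17), the subunit that gave the family its name, measured 97.7, 92.7 and 93.1 FPKM in turn without the field, against 86.9, 90.5 and 89.5 with it, so that every SMF library lay below every control. Cct4 (delta, ENSMUSG00000007739, chromosome 11) measured 87.3, 82.4 and 83.0 FPKM in turn without the field, against 79.2, 86.8 and 82.1 with it. Its groups overlapped, with SMF 1 lowest and Control 2 highest.

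On the side of low ATP affinity, Cct7 (eta, ENSMUSG00000030007, chromosome 6) measured 69.4, 70.7 and 70.0 FPKM in turn without the field, against 72.0, 70.7 and 74.1 with it. The groups did not overlap, but only barely: Control 3 was at 70.70 and SMF 2 at 70.71. Cct8 (theta, ENSMUSG00000025613, chromosome 16) measured 88.4, 87.2 and 86.3 FPKM in turn without the field, against 78.9, 86.8 and 85.3 with it, where SMF 1 was the 1 library below 85 FPKM. Cct6a (zeta, ENSMUSG00000029447, chromosome 5) measured 88.2, 86.9 and 88.8 FPKM in turn without the field, against 84.8, 86.9 and 85.3 with it. Cct3 (gamma, ENSMUSG00000001416, chromosome 3) measured 54.2, 54.2 and 52.9 FPKM in turn without the field, against 56.4, 53.7 and 54.7 with it. The groups overlapped for Cct8, Cct6a and Cct3. The 2 further genes named as CCT subunits were near 0: Cct6b, a zeta subunit known from testis, was at 0.031 to 0.35 FPKM and Cct8l1 at 0 to 0.099 FPKM over the 6 libraries.

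Much of the imbalance moved with the gene length by which reads were divided. The length behind the FPKM equalled the GENCODE M21 union of all exons, retained-intron transcripts included, in 7 of 8 members, while that of Cct6a was 3499 bases against a union of 3620. These lengths ran from 2557 bases for Cct2 and 2766 for Cct5 to 6370 for Cct3 and 6778 for Cct7. The coding sequences are much more alike, at 1605 to 1668 bases in the 7 members that have one in GENCODE M21, whose Cct6a entry has no coding transcript. The principal transcript of Cct3, at 1977 bases, covers 31.0% of the length used, that of Cct7 36.0% and that of Tcp1 48.6%, against 67.0% for Cct5, 76.6% for Cct2 and 77.5% for Cct8. GENCODE M21 lists 7 retained-intron transcripts for Tcp1, 5 for Cct3, 3 each for Cct4, Cct5, Cct6a, Cct7 and Cct8, and 0 for Cct2. Which of these transcripts the cells make cannot be read from gene totals.

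In reads before any division by length, Cct5 had the most, at 9553 to 10820 per library, and Cct8 the fewest, at 3782 to 4902. Divided by the principal transcript, a scale chosen after seeing the data, with the longest transcript standing in for Cct6a, the highest subunit exceeded the lowest by 2.92-fold (SD 0.174, n = 6 libraries), and divided by the coding length, with Cct6a left out, by 2.29-fold (SD 0.136). Cct5 and Cct2 remained first and second on both scales, but the lowest was then Cct8 in place of Cct3. Cct3 went from 6.18% of the summed level as deposited to 11.6% per principal transcript, and Cct7 from 8.09% to 13.1%, where equal supply would give 12.5%. Reads outside the principal transcript were still counted on that scale. It may thus overstate genes where this transcript is a small part of the length used, such as Cct3 and Cct7. How many such reads there were is not known from gene totals. Cct2 went from 21.7% to 16.5% and Cct8 from 9.72% to 7.32%, while Cct5 stayed far above an equal share at 24.5% and 21.3%. On the principal transcript scale Cct7, Tcp1 and Cct3 were close, with Cct7 above Tcp1 and Tcp1 above Cct3 in 5 of 6 libraries each.

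**Figure D2:**
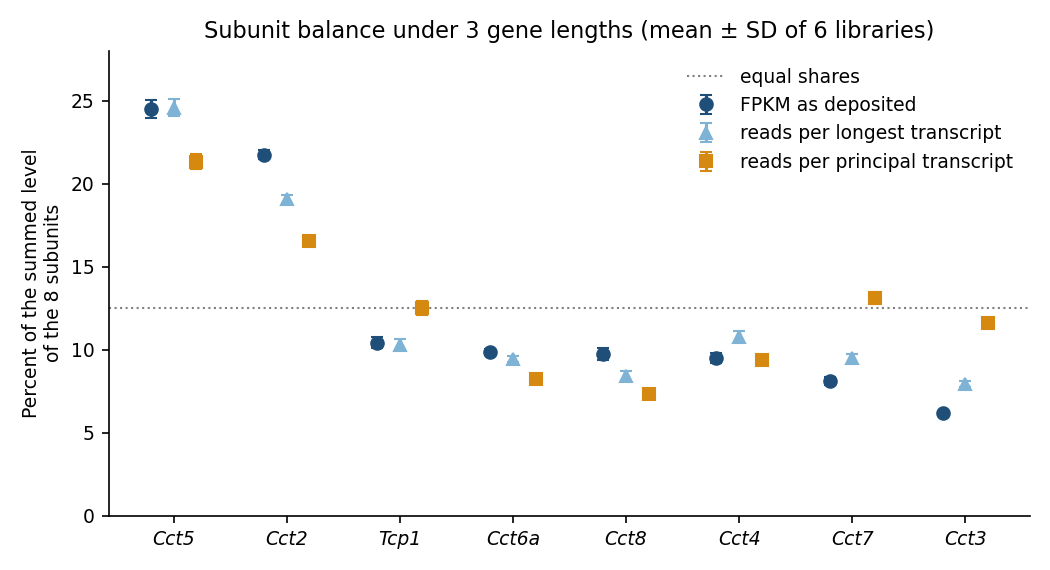
Percent of the summed level of the 8 subunits held by each (vertical axis, mean ± SD of 6 libraries) for FPKM as deposited (circles), reads per longest transcript (triangles) and reads per principal transcript (squares). Cct5 and Cct2 lie above the dotted line of equal shares (12.5%) on each scale, and Cct3 and Cct7 move up by 5 percentage points or more from circle to square.

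The high-affinity side of the ring took 66.1 ± 0.332% of the summed FPKM without the field and 66.2 ± 0.391% with it (SD, n = 3), and 59.9 ± 0.393% and 59.6 ± 0.262% per principal transcript. The groups overlapped on both scales. Within libraries, the share of Tcp1 in the summed FPKM was 10.7 ± 0.191% in controls and 10.1 ± 0.195% in SMF libraries, with 3 of 3 SMF libraries below every control, and the share of Cct7 was 7.94 ± 0.162% and 8.25 ± 0.192%, with 3 of 3 above. The other 6 shares overlapped, Cct5 at 24.2 ± 0.241% and 24.8 ± 0.543%, Cct8 at 9.89 ± 0.0184% and 9.55 ± 0.465%. Shares of a total are tied to each other, and no test was run on them. The sum of the 8 was 882.5 ± 12.0 FPKM without the field and 876.7 ± 1.46 with it. In reads it was 0.327% to 0.335% of the library total recovered from the FPKM.

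Against the field, none of the 8 subunits passed the test, and each difference between group means was under 6%. The fit used limma on log2(FPKM + 1) over all 11114 tested genes, with p-values adjusted by Benjamini and Hochberg's method and called at 0.05. No gene at all passed it: 0% of tested genes were called higher and 0% lower, while 1998 genes (18%) had an unadjusted p under 0.05. Among the members 1 of 8, Tcp1, had an unadjusted p under 0.05. By limma-voom on reads recovered from the FPKM, 242 genes were called higher (2.18% of those tested) and 268 lower (2.41%), and again 0 of the 8 members. Groups did not overlap, with SMF lower, for 12.7% of tested genes and for 1 of the 8 members, and with SMF higher for 11% and 1 of the 8, so the members' counts are near the background. Of the 8 folds, 5 were below 0, against 53.3% of all tested genes, and their median was -0.016, against -0.0095 for all tested genes.

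These are levels in bulk RNA, where fewer cells of a type and less RNA per cell cannot be told apart. Tcp1 differed most, at 94.5 ± 2.8 FPKM without the field and 88.9 ± 1.83 with it (SD, n = 3), a log2 fold of -0.086 (SE 0.036, 95% interval -0.17 to -0.0028, limma adjusted p = 0.266). Once a loess curve on GC content and length was subtracted in every library, its fold was -0.0016 (adjusted p = 0.99). Cct8 stood at 87.3 ± 1.06 and 83.7 ± 4.19 FPKM, a log2 fold of -0.061 (interval -0.16 to 0.036, adjusted p = 0.466), and at -0.020 without SMF 1. Cct7 stood at 70.0 ± 0.658 and 72.3 ± 1.73 FPKM, a log2 fold of 0.045 (interval -0.033 to 0.12, adjusted p = 0.503), which became 0.12 after the correction (adjusted p = 0.296). Cct3 likewise went from 0.030 to 0.084 (adjusted p = 0.678 and 0.417). The remaining log2 folds were 0.030 for Cct5, -0.0053 for Cct2, -0.026 for Cct4 and -0.037 for Cct6a, with adjusted p = 0.555 to 0.949. Single libraries moved several of these small values: with SMF 1 left out Cct3 was at 0.011, Cct5 at 0.014 and Cct4 at 0.0039, and with SMF 3 left out Cct7 was at 0.027. With Control 4 left out Cct3 and Cct5 were both at 0.019 and Cct2 at -0.019, with SMF 2 left out Cct4 was at -0.061 and Cct3 at 0.046, and with Control 2 left out Cct4 was at -0.00029 and Cct2 at 0.010. The intervals of all 8 lie between -0.17 and 0.12, which on this scale is from -11.1% to 8.92%; a p that misses the threshold does not show that levels were equal.

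**Figure D3:**
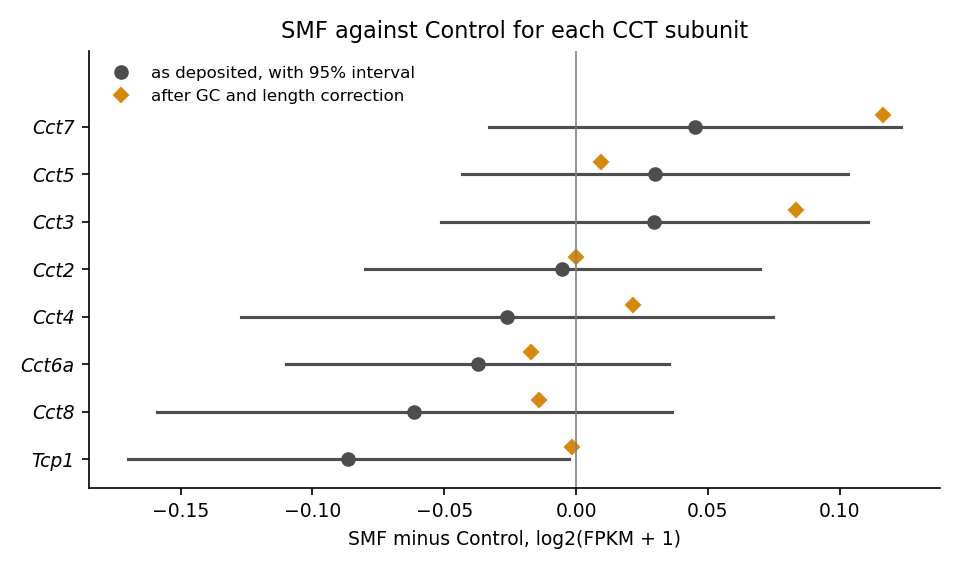
Difference of SMF from Control on the log2(FPKM + 1) scale (horizontal axis) for each subunit, as deposited (grey, with the 95% interval from limma) and after loess correction on GC content and length (orange diamonds). The interval of Tcp1 ends just below 0 at -0.0028, the intervals of the other 7 span 0, and the corrected value of Tcp1 is -0.0016.

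The members were measured with little scatter. Their residual SD on the log2 scale ran from 0.017 (Cct6a) to 0.056 (Cct4) with a median of 0.028, beside a median of 0.051 over the 886 tested genes with a mean of 50 to 250 FPKM. Those genes were matched on FPKM and not on reads, on which counting error depends. Within their narrow scatter the subunits did not move as 1 block. Over the 6 libraries, Tcp1, Cct4, Cct6a and Cct8 correlated with each other at r = 0.64 to 0.83, Cct3, Cct5 and Cct7 at 0.51 to 0.99, and all 12 pairs across these sets were below 0, at -0.87 to -0.47. Both sets hold subunits of either side of the ring. The closest pair was Cct3 and Cct5, at r = 0.99. Cct2 was left out of both sets: it correlated with Cct3 at 0.66 and with Cct5 at 0.61, with Cct7 at -0.054, and with the first set at -0.27 to 0.20. The sets were drawn after their values were seen, and the correlations are a description over 6 libraries that share their scaling. As deposited, the SMF folds of the first set were all below 0 and those of Cct3, Cct5 and Cct7 all above 0. Group means were not removed, so differences between the groups enter these correlations, and their part was not tested.

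SMF 1 was lowest of the 6 libraries in Tcp1, Cct4, Cct6a and Cct8 and highest in Cct3 and Cct5. Its library total was also the lowest of the 6. Without it, the pairs across the sets ran from -0.90 to 0.01 over 5 libraries, and 11 of the 12 were below 0, while pairs within the sets ran from 0.37 to 0.86 and from 0.57 to 0.97. The pairs of Cct2 then had a median of 0.46, with 1 of 7 below 0. By longest annotated transcript, GC content was 41.1% for Tcp1, 43.3% for Cct8, 45.1% for Cct4 and 47.4% for Cct6a, and 46.7% for Cct3, 50.2% for Cct5 and 44.9% for Cct7. The part of GC content in the pattern was not tested.

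**Figure D4:**
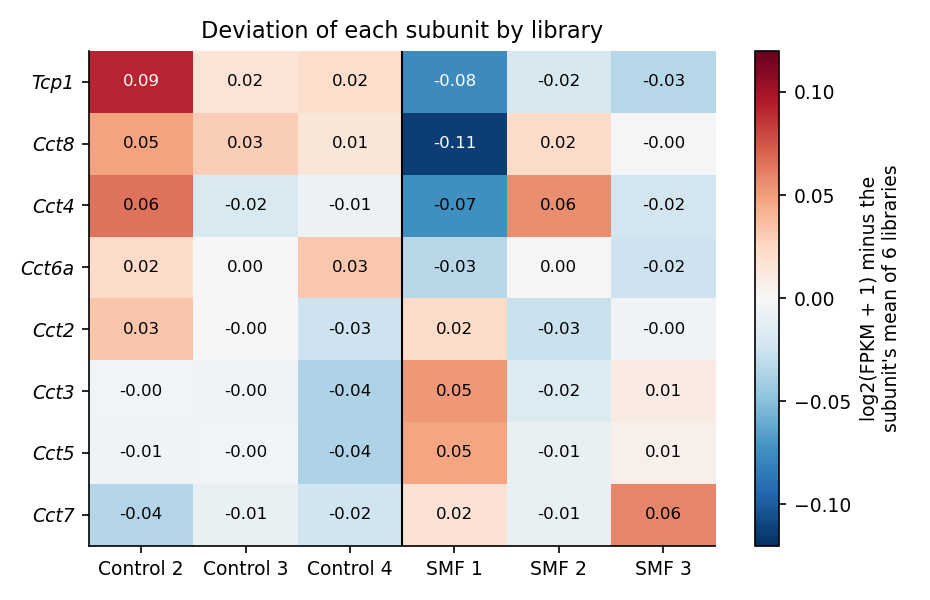
Deviation of each subunit in each library from its own mean over 6 libraries, in log2(FPKM + 1), with red above and blue below the mean; a line separates Control from SMF libraries. In SMF 1, Tcp1, Cct8, Cct4 and Cct6a are below their means (Cct8 by 0.11) and the other 4 subunits above theirs.

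Genes whose level followed the mean of the 8 subunits most closely, among 4932 other tested genes with a mean of at least 10 FPKM, were Triap1 (r = 0.99), Metap1 (0.97), Haus4 (0.96), Vldlr (0.95) and Crot (0.94), by Pearson's r of log2(FPKM + 1) over 6 libraries. Each, like the mean of the subunits, was highest in Control 2, where Triap1 measured 23.9 FPKM, and lowest in SMF 1, where it measured 18.5. With 6 points and so many genes searched, such values are a description of these libraries.

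The genes that work with CCT were examined in 10 lists with 62 tested genes, none of which passed limma over all genes (smallest adjusted p = 0.147). An unadjusted p under 0.05 was found for 11 of the 62, beside 18% of all tested genes, and limma-voom called 1 higher and 1 lower, beside 2.18% and 2.41%. The count of folds above 0 depended on the GC content and length correction, with 36 of 62 as deposited and 27 of 62 corrected, so each list is given both ways. Groups did not overlap for 9 with SMF higher and 6 with SMF lower, beside the 11% and 12.7% of all tested genes. Prefoldin, the hexamer that delivers actin and tubulin, had 3 of 6 subunits above 0 (median 0.0064) and 4 of 6 once corrected (median 0.017). Its alpha-type subunits were at 19.7 ± 0.805 FPKM without the field and 19.3 ± 1.45 with it for Vbp1 and at 84.8 ± 2.2 and 90.7 ± 6 for Pfdn5. Of the beta-type subunits, Pfdn1 was at 86.7 ± 2.93 and 92.9 ± 3.71 FPKM, Pfdn2 at 21.9 ± 1.36 and 22.7 ± 1.18, and Pfdn6 at 48.6 ± 3.42 and 46.3 ± 0.611. Pfdn4 was the least abundant, at 5.94 ± 0.277 and 5.08 ± 0.678 FPKM, and the 1 prefoldin gene whose groups did not overlap (log2 fold -0.20, adjusted p = 0.286). In all 6 libraries Pfdn1 and Pfdn5 were above the other prefoldin genes.

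Among the phosducin-like cochaperones, Pdcl, which helps assemble G protein beta and gamma, was at 16.6 ± 0.867 FPKM without the field and 16.4 ± 1.33 with it. Pdcl3 was at 11.2 ± 0.757 and 12.2 ± 0.331 FPKM and Txndc9 at 8.8 ± 0.687 and 8.4 ± 0.329, and the groups overlapped for all 3 (Pdcl2 was not analysed here). Of these 3 folds 1 was above 0 as deposited (median -0.016) and 3 were once corrected (median 0.051). In the URI prefoldin-like and R2TP list, which assembles RNA polymerases and other large complexes, 4 of 7 were above 0 (median 0.021), and 3 of 7 once corrected (median -0.033). The AAA+ ATPases Ruvbl1 and Ruvbl2 were at 45.6 ± 0.834 and 44.0 ± 1.43 FPKM without the field and 45.0 ± 0.736 and 45.5 ± 2.71 with it, Pih1d1 at 32.7 ± 1.24 and 33.2 ± 1.32, and Pdrg1 at 28.2 ± 0.511 and 31.1 ± 3.01. Of the other chaperonins, 2 of 5 tested were above 0 (median -0.017), and likewise 2 once corrected (median -0.018). The mitochondrial chaperonin Hspd1 was at 212.9 ± 8.46 and 197.9 ± 6.81 FPKM, with its lid Hspe1 at 87.8 ± 1.54 and 86.9 ± 5.74. Mkks and Bbs12, chaperonin-like proteins that act on the BBSome, were at 4.56 ± 0.255 and 4.75 ± 0.105 and at 5.89 ± 0.662 and 6.36 ± 0.941 FPKM.

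Of the clients, both tested actins were above 0 as deposited, and 1 of the 2, Actg1, once corrected. Actb measured 904.3 ± 11.7 FPKM without the field and 919.4 ± 7.79 with it, and Actg1 111.0, 113.5 and 116.7 FPKM in Control 2, 3 and 4 and 126.6, 121.7 and 122.8 in SMF 1, 2 and 3. The groups did not overlap for Actg1 (log2 fold 0.12, adjusted p = 0.174, and 0.077 once corrected), while the fold of Actb was 0.024 as deposited and -0.0067 corrected. Among tubulins, 8 of 11 were above 0 as deposited (median 0.035), but 1 of 11, Tuba4a, once corrected (median -0.017). The most abundant, Tubb5, was at 426.9 ± 15.6 and 423.3 ± 17.7 FPKM, Tubb4b at 195.3 ± 7.71 and 196.3 ± 5.49, Tubb6 at 79.5 ± 2.47 and 83.6 ± 7.03, and Tuba4a at 77.9 ± 2.14 and 79.8 ± 1.24. For the cofactors that join folded alpha and beta tubulin, 4 of 7 were above 0 (median 0.0075), and 2 of 7 once corrected (median -0.038). Tbcb, which binds alpha tubulin, was at 45.5 ± 1.28 and 50.2 ± 0.782 FPKM without overlap (log2 fold 0.14, adjusted p = 0.164, and 0.039 once GC content and length were corrected). Tbca, which binds beta tubulin, was at 70.2 ± 5.3 and 70.7 ± 4.11, Arl2 at 51.0 ± 2.77 and 51.3 ± 1.67, and Tbcd at 22.7 ± 0.298 and 22.5 ± 0.609.

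Of the 3 tested G protein beta subunits, 1, Gnb2, was above 0 (median -0.032), with and without the correction (corrected median -0.010). Gnb2 was at 81.8 ± 2.47 FPKM without the field and 89.3 ± 4.52 with it (log2 fold 0.13, adjusted p = 0.221, and 0.037 once corrected), and Gnb1 at 68.0 ± 0.388 and 66.5 ± 0.554 (log2 fold -0.032, adjusted p = 0.608, and -0.010 once corrected), each without overlap, while Gnb5 was at 2.1 ± 0.095 and 2.0 ± 0.084. Of 11 other reported clients 7 were above 0 (median 0.0064), and 5 once corrected (median -0.0081). The mitotic activator Cdc20 was at 57.6 ± 1.57 and 60.8 ± 1.09 FPKM, the mitotic kinase Plk1 at 61.1 ± 1.46 and 61.4 ± 2.46, the deacetylase Hdac3 at 36.9 ± 0.431 and 38.9 ± 1.05, and Ppp2r2a, a WD40 subunit of PP2A, at 19.8 ± 0.699 and 17.7 ± 1.1. Groups did not overlap for 4 of the 11 with SMF higher, Cdc20 and Hdac3 among them, and for 2 with SMF lower, Ppp2r2a among them. Over all tested genes these shares were 11% and 12.7%. Once corrected, the log2 folds of Cdc20, Hdac3 and Ppp2r2a were -0.0081, 0.10 and -0.070.

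In the heat shock list, which was chosen because HSF1 is known to bind CCT and to act on its genes, 4 of 7 tested were above 0 (median 0.040), and 5 of 7 once corrected (median 0.020). By limma-voom 1 gene was called higher and 1 lower, beside 2.18% and 2.41% of all tested genes. Hsf1, named after its values were seen, measured 13.1, 12.8 and 13.4 FPKM in Control 2, 3 and 4 and 15.8, 15.2 and 14.8 in SMF 1, 2 and 3 (limma adjusted p = 0.147, limma-voom adjusted p = 0.02). Hsp90aa1, the inducible cytosolic HSP90, measured 82.4, 80.1 and 84.8 FPKM in turn without the field, against 70.6, 76.6 and 74.6 with it (limma adjusted p = 0.165, limma-voom adjusted p = 0.0334). Their log2 folds were 0.20 and -0.16 as deposited and 0.20 and -0.10 once corrected. These genes stand apart from their controls without overlap in opposite directions, Hsf1 higher and Hsp90aa1 lower. The abundant Hsp90ab1 was at 1427 ± 18.6 and 1409 ± 7.73 FPKM, Hspa8 at 200.2 ± 7.55 and 205.9 ± 5.16, and Dnajb1 at 23.3 ± 1.27 and 24.0 ± 0.491.

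**Figure D5:**
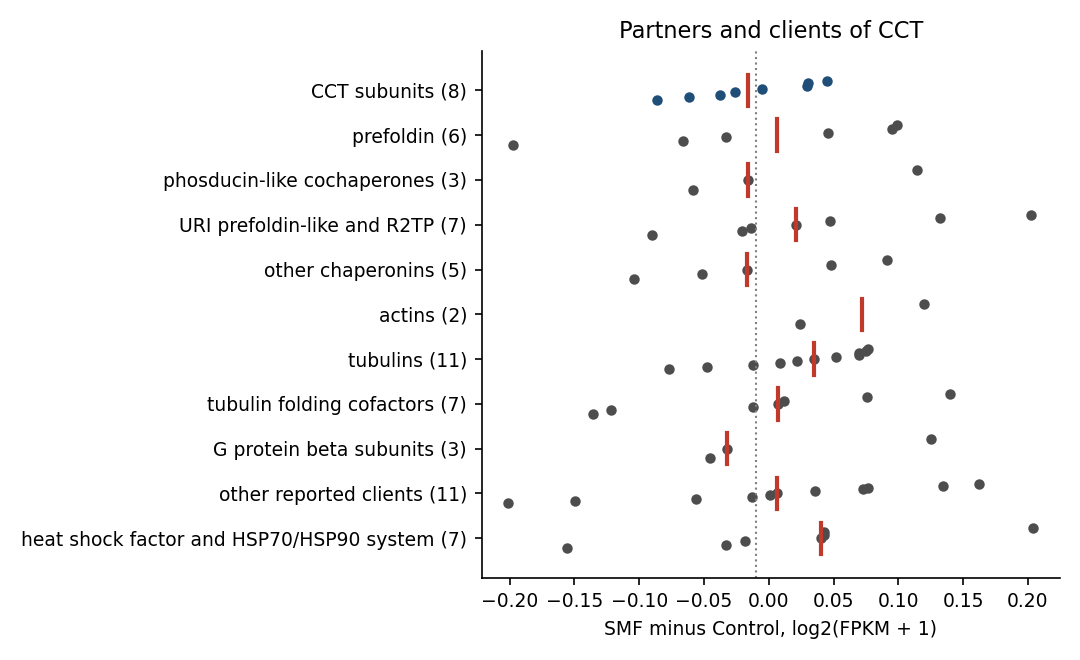
Difference of SMF from Control on the log2(FPKM + 1) scale (horizontal axis) for each tested gene of CCT (blue) and of 10 partner and client lists (grey, number tested in brackets). Red bars mark the median of a list and the dotted line the median of all tested genes (-0.0095); the folds of the 8 subunits lie between -0.086 and 0.045.

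Several members share ground with another gene, and since no strand marking is stated, reads from shared stretches cannot be told apart. In GENCODE M21 (GRCm38), the starts of Tcp1 and Mrpl18, Cct3 and Tsacc, Cct5 and Fam173b, Cct6a and Psph, Cct7 and Pradc1, and Cct8 and a noncoding transcript (B130034C11Rik) lie on opposite strands within 1000 bases of each other. In 3 of these pairs the 5′ ends of the genes overlap, by 645 bases for Tcp1 and Mrpl18, 452 for Cct6a and Psph, and 457 for Cct7 and Pradc1. The partner across the start was the lower gene each time: Mrpl18, a mitochondrial ribosomal protein, was at 47.6 ± 3.34 FPKM without the field and 48.1 ± 2.84 with it, Psph, of serine synthesis, at 17.6 ± 0.621 and 18.5 ± 0.394, Fam173b at 6.98 ± 0.248 and 7.32 ± 0.43, and Pradc1 at 6.59 ± 0.102 and 7.49 ± 1.49. Tsacc and B130034C11Rik were below 1 FPKM in all 6 libraries. None of these passed limma (adjusted p = 0.42 to 0.92 for the 4 tested).

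At its far end, Tcp1 overlaps 1255 bases of Acat3, an acetyl-CoA acetyltransferase on the other strand. Acat3 measured 3.70, 2.44 and 2.54 FPKM in Control 2, 3 and 4 and 3.48, 6.56 and 4.63 in SMF 1, 2 and 3, with overlapping groups (log2 fold 0.58, limma adjusted p = 0.204; called by limma-voom, adjusted p = 0.0271). SMF 2 was highest in Acat3. Cct8 overlaps 192 bases of Usp16, which was at 4.36 ± 0.172 and 4.16 ± 0.198 FPKM. The introns of Cct6a and Tcp1 hold small nucleolar RNAs. Of these, Snora20 in Tcp1 was at 0 to 1.88 FPKM and Snora15 in Cct6a at 0 to 1.79 over the 6 libraries, in RNA selected for poly(A) tails. Processed pseudogenes of Tcp1 and Cct3 are annotated in M21 and were not analysed here, nor were any of the other members. How reads with several places of origin were counted is not stated, so the levels of members with such copies are uncertain.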

How the data were processed

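Poly(A) RNA of 6 AML12 libraries, 3 Control and 3 SMF by their titles, was compared. The deposited files give FPKM calculated by the authors, 1 file per library. Per the submitters' processing notes, the build was GRCm39 and tools included HISAT2 2.1.0 and Bowtie2 2.2.3, without roles; the counting tool, annotation and handling of multi-mapped reads are not stated there. Symbols, lengths and GC content (longest transcript) came from GENCODE M21 (GRCm38), with symbols for 23529 of 23886 genes.

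Dividing FPKM steps by length gave whole reads within 0.02 for 96.9% of 22004 detected genes at the M21 exon length and for all with a searched length (3499 bases for Cct6a). By this recovery, Control 2, 3 and 4 totalled 16601816, 18200516 and 17031387 reads, and SMF 1, 2 and 3 totalled 15514530, 17279772 and 17969397.

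limma 3.58.1 (R 4.3.3) was fitted to log2(FPKM + 1) with a variance trend over 11114 genes, two-sided; this scale understates changes of low genes. limma-voom used the recovered reads. Both were tested on simulated data. Alternatives covered pseudocounts, filters, scalings, the variance trend, a threshold of 0.01, a replicate block, a loess correction (span 0.3) and leaving out each library. Members and lists were chosen with earlier results of these data known. Named were all members, prefoldin and phosducin-like genes, of each other list the passing genes or up to 4 most abundant, and the 5 genes most like the subunits' mean. Genes beside a member were added later, by position alone. Promoters came from RefSeq. Figures used matplotlib 3.10.9 in Python 3.11.15.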

Additional observations from a re-analysis of the deposited data

How the results depend on the processing

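No member passed the threshold under any of the 18 alternatives to the SMF comparison (lowest adjusted p = 0.183, for Tcp1 by limma-voom). Tcp1, Cct6a and Cct8 kept a fold below 0 and Cct7 one above 0 in all 18. Some of these could not have differed: the filters, the variance trend and the threshold leave a fold as it is. A threshold of 0.01 also cannot call a gene that fails at 0.05. Cct3 and Cct5 turned below 0 after rescaling to TPM (-0.0037 and -0.0038) and quantile normalization (-0.0042 and -0.028). Cct2 turned above 0 with median-of-ratios scaling (0.0047), the GC content and length correction (1.373e-05) and without Control 2 (0.010) or SMF 2 (0.0066), with a range of -0.0192 to 0.010 when 1 library was left out. Cct4 turned above 0 with that correction (0.022) and without SMF 1 (0.0039), with a range of -0.0607 to 0.0039 when 1 library was left out. The cause of these turns was not tested. Of the 8 folds, 5 as reported, 3 were below 0 with the correction, 4 with median-of-ratios scaling and 7 with TPM or quantile normalization, which moved their median to -0.050 and -0.073. The median over all genes tested was -0.040 with TPM and -0.0080 with quantile normalization, so with TPM the tested genes shifted as a whole. Over all genes, the count of calls went from 0 to 8 at a filter of 5 FPKM (6 higher, 2 lower), to 510 by limma-voom (242 higher, 268 lower) and to 19 with the replicate block (13 higher, 6 lower), and ran from 0 to 3 with 1 library left out (0 to 2 higher, 0 to 1 lower; 1 without Control 4, 2 without SMF 1, 3 without SMF 3). Only numbers 2 and 3 occur in both groups. Their libraries' deviations correlated at 0.058 and 0.046, where all pairs of a Control and an SMF library ran from -0.148 to 0.107. Whether equal numbers mark a shared culture or batch is not stated and was not tested. The block called none of the members. Numbers 1 and 4 each occur in 1 group only, so differences under the block rest on Control 2 and 3 and SMF 2 and 3. The ratio of the highest to the lowest subunit was 3.13 per longest transcript, 2.92 per principal transcript and 2.29 per coding length, as the lengths differ, and 3.96 after quantile normalization or with any library left out. At 3782 reads or more per value, counting error was at most 1.63%, and 3 libraries per group limit the precision of the differences.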
